A study of Arabidopsis thaliana with 9 samples.

Results

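Root transcripts of Arabidopsis thaliana seedlings were counted, and all roots that had met the antibiotic carbenicillin were set against roots that had not, as 1 pooled contrast. The carbenicillin group held 6 libraries, 3 from seedlings with 7 days of exposure and 3 from seedlings with 1 day, and the mock group held 3 libraries, so that the contrast used all 9 libraries of the series. All seedlings were of the ecotype Col-0, carried no transgene or mutation named in the labels, and grew at 24 °C with 16 h of light and 8 h of dark. They spent 6 days on a first plate of MS medium and 1 day on a second plate. Carbenicillin at 10 µg/mL was in both plates of the 7 day seedlings, in the second plate of the 1 day seedlings, and in neither plate of the mock seedlings. The features were the 19580 of 28775 genes that passed a filter on low counts, and the question was which transcripts differed from mock roots whichever exposure was used.

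Carbenicillin is a beta-lactam that blocks cell wall synthesis in bacteria and is used in plant culture to hold bacteria back. Plant roots short of sulfur switch on a small set of marker genes, among them the LSU and SDI genes, together with the enzymes that reduce sulfate. The bZIP factor HY5, which the COP1-SPA ubiquitin ligase degrades in the dark, turns on light-responsive genes that include the flavonol activator MYB12 and the early light-induced proteins ELIP1 and ELIP2. When sugar runs short, plants switch on another set of genes, many of which were first described as dark-inducible.

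Total counts ran from 6707693 to 16088265 in the carbenicillin libraries and from 5820675 to 15836536 in the mock libraries. The shallowest libraries were 7 days 3, 1 day 3 and mock 1, so each exposure held 1 of them. All 13 root markers had counts in every library, and they summed to between 16511 and 26337 CPM, counts scaled to a common library size, in carbenicillin roots and to between 16227 and 21883 CPM in mock roots. That sum mostly follows 1 gene, PYK10, with 2252269 counts over all libraries, against 15610 for CASP1, the next highest. Of the 13 root markers, 8 had a log2 fold change under 0 and 5 over 0, and 0 were called by edgeR. The 15 shoot markers summed to between 143 and 467 CPM in carbenicillin roots and to between 177 and 233 CPM in mock roots. The highest sums were 354 CPM in 1 day 3 and 467 CPM in 7 days 3. The other carbenicillin libraries, at 143 to 163 CPM, lay under all mock libraries. Between 9 and 15 of the 15 markers had counts in a given library, and 0 of the 15 were at 0 in every library. Genes of touch and early wounding had a higher mean level in the 3 shallow libraries, at 3.71 to 4.01 log2 CPM, than in the 6 deep ones, at 2.91 to 3.33. The labels do not say whether the numbered replicas are separate cultures, and p-values therefore cover only the spread among these libraries, which may be technical. In whole roots, fewer cells of a type and less RNA per cell cannot be told apart.

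Genes that passed the test in the pooled contrast were all lower in carbenicillin roots. They were LSU2 and ATSDI1, both sulfur-limitation markers, AT1G04770, and MYB12, an activator of flavonol synthesis. AT1G04770 carries the same annotation as ATSDI1, a protein with tetratricopeptide repeats. The 4 genes made up 0.0204% of the 19580 tested, at an adjusted p under 0.05 (quasi-likelihood test of edgeR, Benjamini-Hochberg adjustment, as for every adjusted p marked edgeR below). In the other direction the same test called 0 genes (0%). At an unadjusted p under 0.05 there were 702 genes lower (3.59%) and 760 higher (3.88%) in carbenicillin roots, 1462 in all (7.47%). DESeq2, run on the same genes, called 142 lower (0.725%) and 78 higher (0.398%), with all 4 genes among them.

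**Figure D1:**
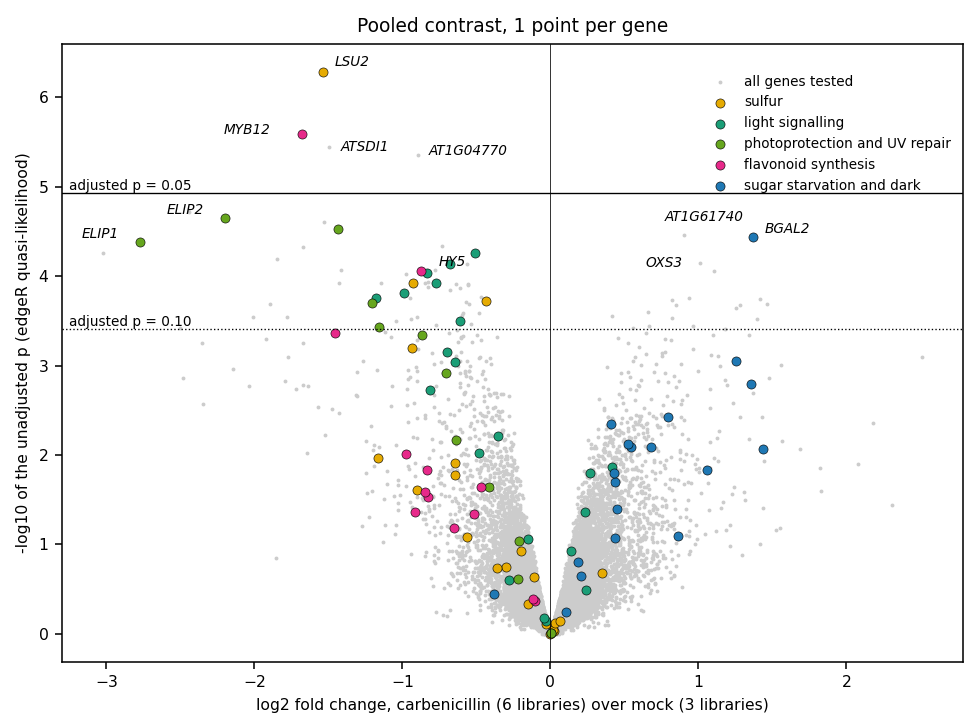
Log2 fold change of carbenicillin (6 libraries) over mock (3 libraries) against the -log10 of the unadjusted p from edgeR's quasi-likelihood test, with 1 point per gene, members of 5 gene lists in colour and lines at adjusted p-values of 0.05 and 0.10. The 4 genes above the upper line all lie to the left, and BGAL2, AT1G61740 and OXS3 lead on the right between the lines.

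LSU2 encodes a small coiled-coil protein that is induced when sulfur is short. Its level was 3.6 CPM at the lowest, 3.88 at the median and 4.81 at the highest over the 6 carbenicillin libraries, against 10.5, 9.55 and 14.8 CPM in mock 1, 2 and 3. Every carbenicillin library lay under every mock library, and mock 3 was the highest. The means were 4.00 ± 0.419 CPM in carbenicillin roots (SD, n = 6) and 11.6 ± 2.80 CPM in mock roots (SD, n = 3). LSU2 fell by 1.54 on the log2 scale (SE 0.16, adjusted p = 0.0102, edgeR), the lowest p of the 19580 genes. It was counted with few reads, between 24 and 220 per library, and its neighbour LSU4 is a close relative whose reads could be shared. The call ended without 1 day 2 (adjusted p = 0.0550) and without mock 3 (adjusted p = 0.0852).

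ATSDI1, also written SDI1, encodes a sulfur deficiency-induced protein that represses glucosinolate synthesis. It had 4.37 CPM at the lowest, 5.77 at the median and 7.39 at the highest in carbenicillin libraries, against 14.2, 12.8 and 20.7 CPM in mock 1, 2 and 3. The groups did not overlap, with mock 3 the highest library of all. The mean was 5.68 ± 1.06 CPM in carbenicillin roots (SD, n = 6) and 15.9 ± 4.25 CPM in mock roots (SD, n = 3), and ATSDI1 fell by 1.50 on the log2 scale (SE 0.19, adjusted p = 0.0218, edgeR). Its call ended when 1 of 4 libraries was left out, with an adjusted p of 0.0635 without 1 day 1, 0.0744 without 1 day 2, 0.0658 without 1 day 3 and 0.185 without mock 3, and 0.0517 without the 3 shallow libraries.

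AT1G04770 had 11.9 CPM at the lowest, 15.5 at the median and 16.9 at the highest in carbenicillin libraries, against 28.4, 25.4 and 30.2 CPM in mock 1, 2 and 3. No library of one group reached the other, and 1 day 1 was the lowest. The means were 15.1 ± 1.73 CPM in carbenicillin roots (SD, n = 6) and 28.0 ± 2.41 CPM in mock roots (SD, n = 3), and AT1G04770 fell by 0.90 on the log2 scale (SE 0.11, adjusted p = 0.0218, edgeR). The gene overlaps AT1G04760 on the opposite strand, and since the strand setting of the counting is not given in the sources used here, reads of the pair may not be told apart. Its call ended without 1 day 2 (0.0744), 1 day 3 (0.0658), 7 days 1 (0.0780) or mock 3 (0.280), values that are adjusted p-values of edgeR.

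MYB12 encodes a MYB factor that switches on the early genes of flavonol synthesis. Carbenicillin libraries held 7.31 CPM at the lowest, 10.2 at the median and 14.0 at the highest, against 22.8, 43.8 and 36.0 CPM in mock 1, 2 and 3. The highest carbenicillin library, 7 days 2, stayed under mock 1, the lowest and shallowest of the mock libraries. MYB12 averaged 10.7 ± 2.39 CPM in carbenicillin roots (SD, n = 6) and 34.2 ± 10.6 CPM in mock roots (SD, n = 3), and it fell by 1.68 on the log2 scale (SE 0.20, adjusted p = 0.0218, edgeR). The call ended without 1 day 1 (adjusted p = 0.0635), 1 day 2 (0.0744), mock 2 (0.0766) or mock 3 (0.185).

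**Figure D2:**
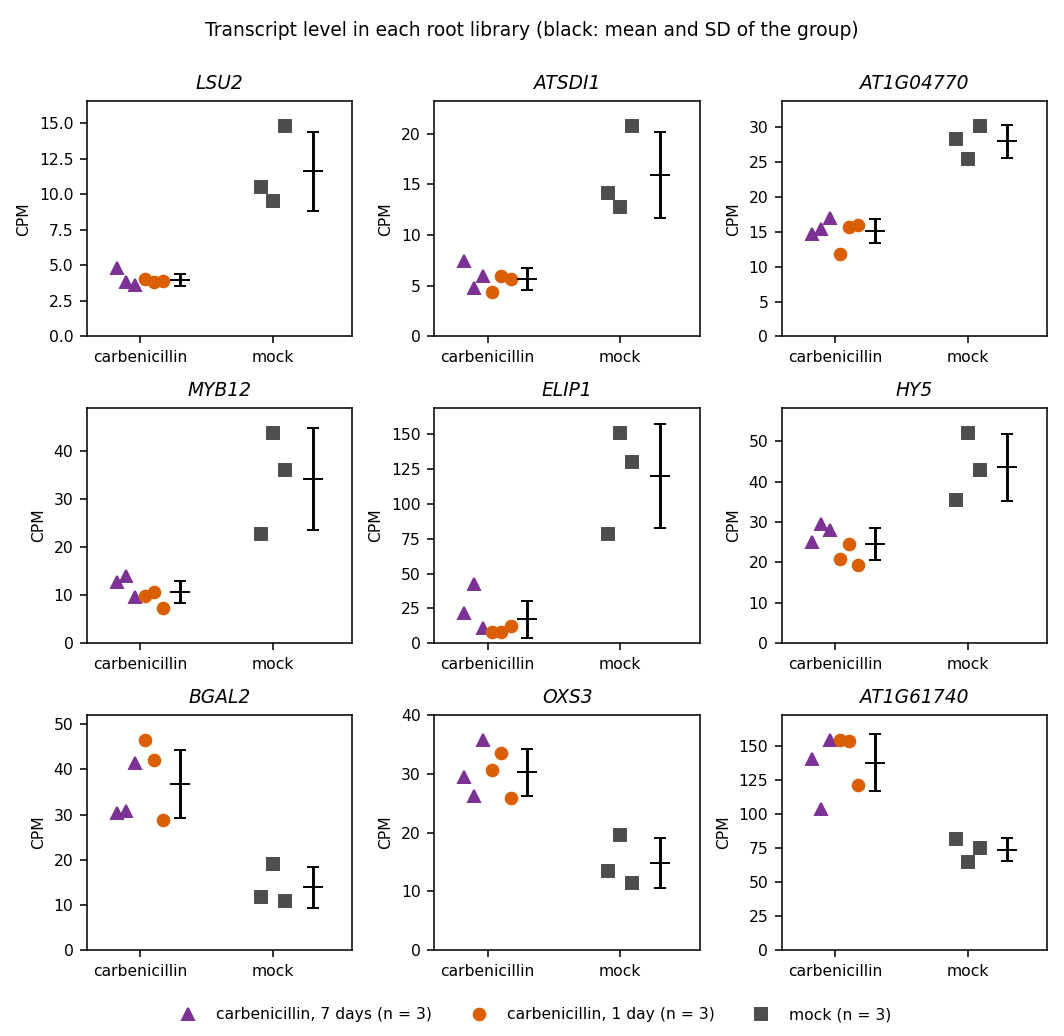
Level in CPM (vertical axis from 0) of 9 genes in each library, with triangles for 7 days and circles for 1 day of carbenicillin, squares for mock, and the mean and SD of each group in black (n = 6 and n = 3). In all 9 panels the 6 carbenicillin libraries and the 3 mock libraries occupy separate ranges, and the upper panels with LSU2, ATSDI1 and AT1G04770 show the carbenicillin libraries lower.

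The number of genes called changed with single libraries. Leaving out 1 day 2 or mock 3 left 0 genes by edgeR (797 lower and 704 higher at an unadjusted p under 0.05 without 1 day 2, 525 and 458 without mock 3). Without 1 day 1 or 1 day 3 there were 2 genes lower, and without 7 days 3 there were 9. Without mock 1, 37 genes were called lower, and without 7 days 2 edgeR called 49 lower and 27 higher. Without mock 2 the calls were 3 lower and 3 higher. Over 19 alternative fits the log2 fold change ran from -1.68 to -1.31 for LSU2, from -1.65 to -1.24 for ATSDI1, from -0.96 to -0.83 for AT1G04770 and from -1.88 to -1.46 for MYB12.

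**Figure D3:**
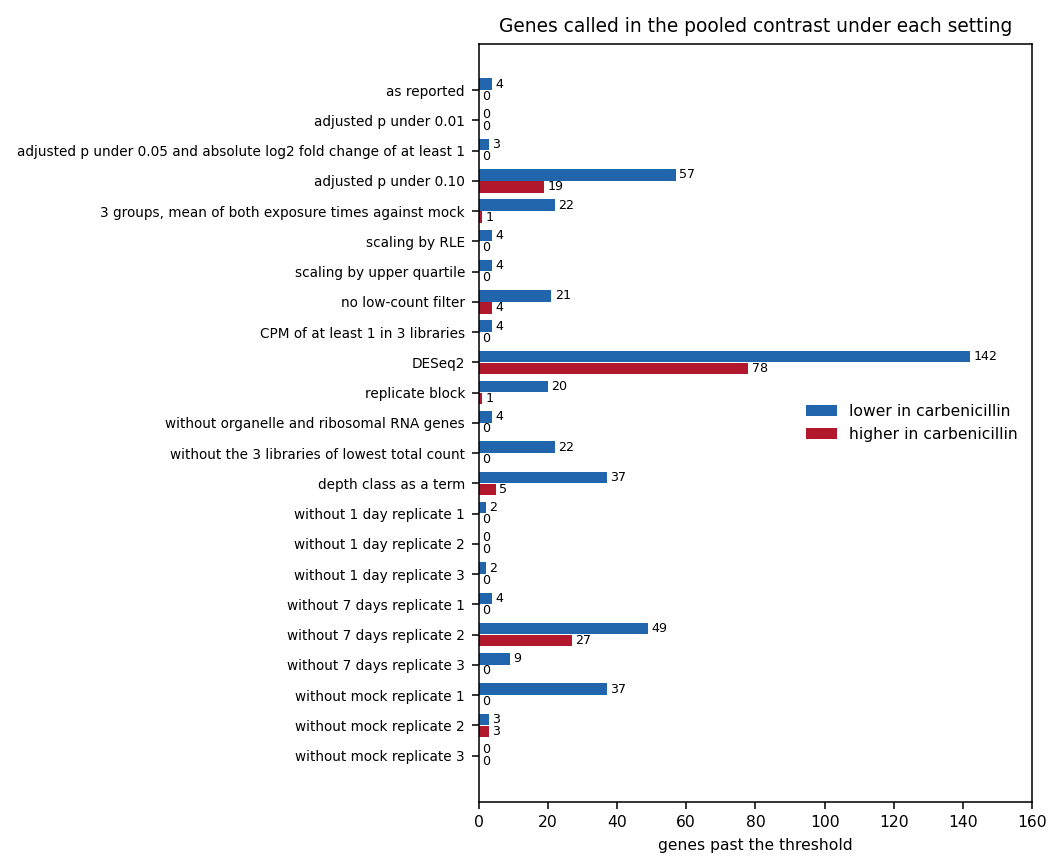
Number of genes past the threshold in the pooled contrast (horizontal axis, genes), lower in carbenicillin in blue and higher in red, for the fit as reported and for each alternative. The count of lower genes runs from 0 without 1 day 2 or mock 3 to 142 with DESeq2, and the count of higher genes from 0 to 78.

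Libraries of like depth were also set side by side. Among the deep libraries, 4 with carbenicillin against 2 mock, the log2 ratio of mean CPM was -1.46 for LSU2, -1.50 for ATSDI1, -0.92 for AT1G04770 and -1.72 for MYB12. Among the shallow ones, 2 with carbenicillin against 1 mock, the ratios were -1.37, -1.22, -0.77 and -1.38 in the same order. A pseudocount of 0.5 CPM was added on both sides, and these ratios have no test.

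The genes with the lowest p in the other direction did not pass in edgeR's test, although DESeq2 called them. Of 19 alternative fits AT1G61740 passed in 5, BGAL2 in 6 and OXS3 in 5, in each case with DESeq2 and without 7 days 2 among them. AT1G61740, annotated as a sulfite exporter family protein, had 103 CPM at the lowest, 147 at the median and 154 at the highest in carbenicillin libraries, against 81.3, 64.7 and 75.2 CPM in mock 1, 2 and 3. BGAL2, a beta-galactosidase whose transcript is known to accumulate on sugar starvation, had 28.9 CPM at the lowest, 36.1 at the median and 46.5 at the highest, against 11.7, 19.2 and 11.0 CPM in mock roots. OXS3, a gene of tolerance to heavy metals and oxidative stress, had 25.9, 30.1 and 35.8 CPM by the same measures in carbenicillin libraries, against 13.5, 19.7 and 11.5 CPM in mock roots. In each of these genes all 6 carbenicillin libraries lay over all 3 mock libraries, as they did in 2.06% of the genes tested. Groups without overlap, in either direction, were found in 787 genes (4.02%). Log2 fold changes were 0.91 (SE 0.14) for AT1G61740 and 1.37 (SE 0.22) for BGAL2, both with an adjusted p of 0.0705 in edgeR's quasi-likelihood test, and 1.01 (SE 0.17) for OXS3, with 0.0724.

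Gene lists for the pathways above, and for others that roots use, were described by their counts and medians and not tested as lists. The lists were chosen with earlier results of these data known, so their shares beside those of all genes are descriptive only. Apart from called members, the member of lowest p in each list and 9 genes fixed by name, the members named below were chosen after their values had been seen. Across all 19580 genes 9884 had a log2 fold change under 0 and 9696 over 0, with a median of -0.0015. The lists farthest from that median were flavonoid synthesis, photoprotection and UV repair, and light signalling on the lower side and sugar starvation on the higher side.

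**Figure D4:**
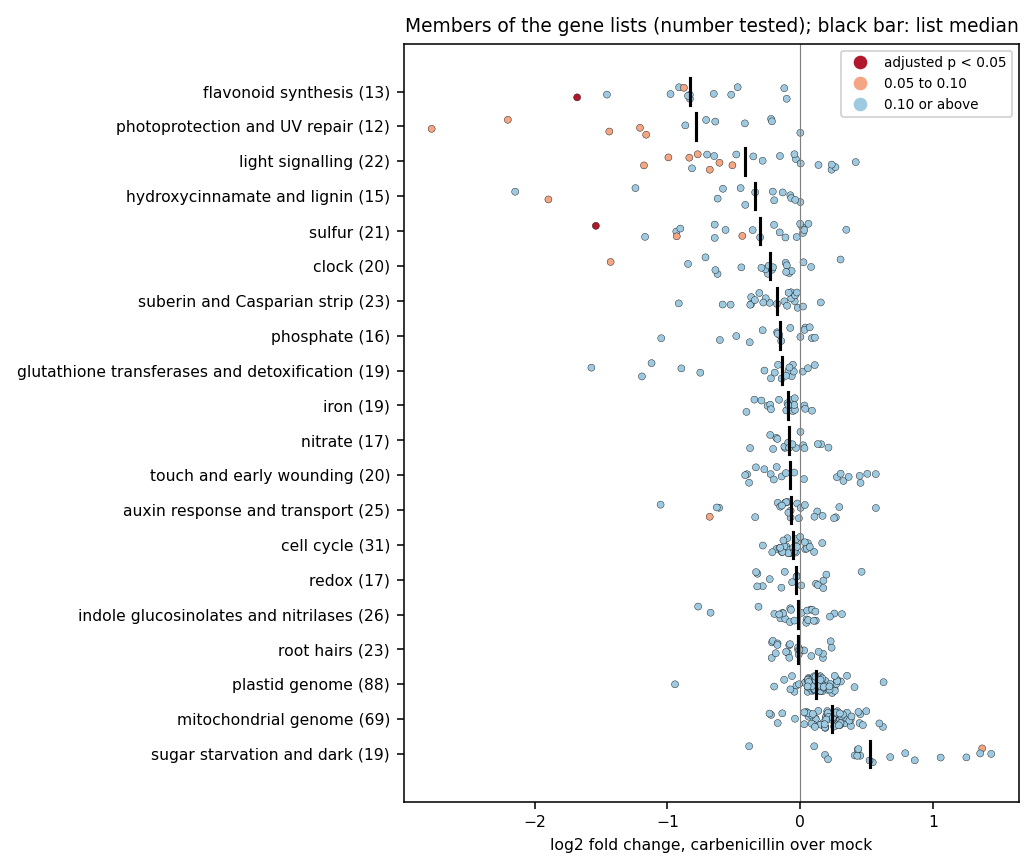
Log2 fold change of carbenicillin over mock (horizontal axis) for each tested member of 20 gene lists, coloured by adjusted p, with the list median as a black bar and the number tested in brackets. Medians run from -0.83 for flavonoid synthesis to 0.52 for sugar starvation and dark, and red points, the called members, occur only in the flavonoid and sulfur lists.

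Of the 21 sulfur genes tested 15 had a log2 fold change under 0, and the list median was -0.30, which was -0.20 without mock 1. ATSDI1 is not among the 21, since the list's symbol for it matched no entry of the RefSeq table. The list's symbol SDI2 matched none either. AT1G04770, annotated like ATSDI1, is also not among the 21, so the counts and the median leave out these called genes. LSU2 passed the test, and APR2 and SHM7 had an adjusted p between 0.05 and 0.10, where 0.388% of all genes were under 0.10 in either direction. In 4 of the 21 genes all carbenicillin libraries lay under all mock libraries, against 1.96% of all genes tested. DESeq2 called 4 of the 21 lower (0.725% of all genes), and 8 were lower at an unadjusted p under 0.05 by edgeR (3.59%). APR2, the reductase of activated sulfate, had 30.6 CPM at the lowest and 53.5 at the highest in carbenicillin libraries, against 74.8, 68.4 and 85.6 CPM in mock 1, 2 and 3, with -0.93 as its log2 fold change (SE 0.17, adjusted p = 0.0724, edgeR). It overlaps other annotated genes on the opposite strand. SHM7, a serine hydroxymethyltransferase, ranged from 90.9 to 108 CPM in carbenicillin libraries, against 133, 134 and 136 CPM in mock roots, a log2 fold change of -0.44 with an SE of 0.082.

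Other marker genes of sulfur limitation were lower without passing. LSU1 averaged 6.27 CPM in carbenicillin roots and 11.7 CPM in mock roots, and its log2 fold change was -0.93 (SE 0.20, adjusted p = 0.121, edgeR), and LSU3 stood at -0.90 with an adjusted p of 0.538. The APR2 relatives APR1 and APR3 both stood at -0.64, with overlapping groups. The transporters that bring sulfate into the root and out of the vacuole were nearer to 0. SULTR1;1 had a log2 fold change of 0.02, SULTR4;2 of 0.02 and SULTR1;2 of -0.30 (SE 0.21). The activating enzyme APS1 stood at 0.03 and EIL3, the SLIM1 regulator of the sulfur response, at -0.03. By library, the mean level over the 21 genes was 4.69 to 5.09 log2 CPM with carbenicillin and 5.15 to 5.25 log2 CPM in mock roots, with 7 days 1 the highest of the carbenicillin libraries.

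All 13 flavonoid genes tested had a log2 fold change under 0, with a median of -0.83, yet MYB12 was the only one of the list that passed. At an unadjusted p under 0.05, 10 of the 13 were lower (3.59% of all genes), DESeq2 called 3 lower (0.725%), and 3 had groups apart (1.96%). DTX35, a transporter needed for flavonoids to build up, ranged from 136 to 214 CPM in carbenicillin libraries, against 271, 372 and 296 CPM in mock 1, 2 and 3 (log2 fold change -0.87, SE 0.15, adjusted p = 0.0724, edgeR). It overlaps another gene on the same strand. UGT78D2, which glucosylates flavonoids, averaged 41.2 CPM in carbenicillin roots and 112 CPM in mock roots, and its log2 fold change was -1.45 (SE 0.30, adjusted p = 0.105, edgeR). The enzymes of the core pathway had overlapping groups: FLS1, flavonol synthase, stood at -0.98 (adjusted p = 0.386), F3H, flavanone 3-hydroxylase, at -0.84 (0.549), and TT4, chalcone synthase, at -0.47 (0.523), all p-values by edgeR. The mean level of the 13 genes was 6.08 to 7.31 log2 CPM in carbenicillin libraries and 7.12 to 7.73 log2 CPM in mock libraries, and the carbenicillin library inside the mock range was 7 days 2.

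Light signalling genes contained 22 tested members, 16 of them with a log2 fold change under 0, a median of -0.42 and 0 members called by edgeR, against 12 lower and 3 higher at an unadjusted p under 0.05 (3.59% and 3.88% of all genes) and 10 called lower by DESeq2 (0.725% of all genes). In 10 of the 22 all carbenicillin libraries lay under mock (1.96% of all genes), and in 2, the photoreceptor genes PHYA and CRY2, all lay over mock (2.06%). HY5 had 19.5 CPM at the lowest, 24.8 at the median and 29.5 at the highest in carbenicillin libraries, against 35.6, 52.0 and 43.0 CPM in mock 1, 2 and 3. The groups did not meet, and mock 1 was the mock library closest to carbenicillin. The log2 fold change of HY5 was -0.83 (SE 0.14, adjusted p = 0.0724, edgeR), with -0.91 among deep and -0.57 among shallow libraries. Its homolog HYH ranged from 14.2 to 27.4 CPM with carbenicillin, against 31.9, 44.9 and 35.4 CPM in mock roots (log2 fold change -0.99, SE 0.18, adjusted p = 0.0786, edgeR).

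Within the ubiquitin ligase that degrades HY5, the members differed in their values. SPA1, which works with COP1, had 104 to 128 CPM in carbenicillin libraries, against 164, 171 and 164 CPM in mock 1, 2 and 3, and differed by -0.51 on the log2 scale (SE 0.084, adjusted p = 0.0719, edgeR). SPA4 stood at -0.70 and SPA3 at -0.65, both with groups apart, while COP1 itself stood at -0.15 and SPA2 at -0.03, with overlapping groups. Among regulators that act on light responses, RUP1, a repressor of the UV-B receptor UVR8, stood at -0.77 (SE 0.14). Its log2 ratio was -0.96 among deep and -0.16 among shallow libraries. The B-box genes STH and STO stood at -1.18 (SE 0.22) and -0.61 (SE 0.12). Of the other B-box genes tested in the list, LZF1 stood at -0.48, BZS1 at 0.0043 and BBX21 at 0.42, all with overlapping groups. The receptor gene UVR8 stood at -0.04, CRY1 at 0.24 and CRY2 at 0.27. STH and STO each overlap a gene on the opposite strand. The mean level of the list was 4.97 to 5.15 log2 CPM in carbenicillin libraries and 5.31 to 5.57 log2 CPM in mock libraries, so that the ranges did not touch.

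The widest range of fold changes belonged to photoprotection and UV repair genes, where 11 of 12 members had a log2 fold change under 0, 8 had groups apart on the lower side (1.96% of all genes) and the median was -0.79. By edgeR 0 were called (9 lower at an unadjusted p under 0.05, against 3.59% of all genes), while 7 were called lower by DESeq2 (0.725% of all genes). ELIP1, a chlorophyll-binding protein made in strong light, had 7.81 CPM at the lowest, 11.95 at the median and 42.5 at the highest with carbenicillin, against 78.3, 151 and 130 CPM in mock 1, 2 and 3. The carbenicillin libraries were all lower, and 7 days 2 was the one closest to mock. Its log2 fold change was -2.77 (SE 0.44, adjusted p = 0.0705, edgeR), and its close copy ELIP2 had -2.2 (SE 0.33, adjusted p = 0.0688). Reads could be shared between the ELIP copies.

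SIGE, a plastid sigma factor that blue light induces, ranged from 20.2 to 39.4 CPM in carbenicillin libraries, against 53.1, 110 and 73.6 CPM in mock 1, 2 and 3, -1.44 on the log2 scale (SE 0.22). ABCI20 and ABCI21, subunits of ABC transporters, stood at -1.21 (SE 0.23) and -1.16 (SE 0.24). The photolyase relative CRY3 stood at -0.86 and DDB2, which binds UV-damaged DNA, at -0.71, with adjusted p-values of 0.105 and 0.152 by edgeR. DDB1A, the partner of DDB2, stood at 0.0019 with overlapping groups. Mean levels of the list were 4.26 to 5.09 log2 CPM in carbenicillin libraries and 5.33 to 5.87 log2 CPM in mock libraries.

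Enzymes that make and glucosylate hydroxycinnamates lay mostly under 0, in 14 of 15 genes, with a list median of -0.34. By edgeR 0 were called, and 7 were lower at an unadjusted p under 0.05 (3.59% of all genes). DESeq2 called 2 lower (0.725%), and 2 had groups apart on the lower side (1.96%). UGT84A2, a sinapate glucosyltransferase, ranged from 12.6 to 51.6 CPM in carbenicillin libraries, against 65.0, 132 and 90.7 CPM in mock 1, 2 and 3 (log2 fold change -1.90, SE 0.36, adjusted p = 0.0787, edgeR). Its relative UGT84A1 stood at -2.15 (SE 0.50), but there the groups overlapped and the adjusted p was 0.152. Of the first enzymes of the pathway, PAL1, PAL2 and C4H had log2 fold changes of -0.58, -0.41 and -0.34 with overlapping groups. PAL4 stood at 0.0022, 4CL1 at -0.07, 4CL2 at -0.04 and 4CL3 at -1.24, also with overlapping groups. CAD4, listed as ATCAD4 and active in lignin synthesis, stood at -0.45 (SE 0.12) with groups apart.

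Sugar starvation and dark-inducible genes were the list with the highest median, 0.52, and 18 of 19 tested members had a log2 fold change over 0. None of the 19 was called by edgeR, 13 were higher by the unadjusted p at 0.05 (3.88% of all genes), and DESeq2 called 4, all higher (0.398% of all genes). The 6 carbenicillin libraries lay over the 3 mock libraries in 5 of the 19, against 2.06% of all genes. DIN10, a raffinose synthase relative, averaged 440 CPM in carbenicillin roots and 185 CPM in mock roots (log2 fold change 1.25, SE 0.29, adjusted p = 0.138, edgeR). ATL8, a RING finger gene, stood at 1.36 (adjusted p = 0.173), and AT4G35770, known as DIN1 or SEN1, at 1.44 with overlapping groups (adjusted p = 0.364).

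Enzymes that release energy from amino acids were on the same side of 0. GDH2, a glutamate dehydrogenase, averaged 1151 CPM in carbenicillin roots and 800.6 CPM in mock roots, or 0.52 on the log2 scale (SE 0.16), and MCCA, a subunit of the carboxylase of leucine breakdown, stood at 0.68 (SE 0.21). The trehalose phosphate synthase relatives TPS8, TPS9 and TPS11 stood at 0.79, 0.55 and 0.43. DIN2, a beta-glucosidase, was the exception at -0.38 (SE 0.40). Mean levels of the list were 5.65 to 6.21 log2 CPM in carbenicillin libraries and 4.90 to 5.58 log2 CPM in mock libraries, where mock 2 came closest to carbenicillin.

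Clock genes are described here because light and sugar genes follow the time of day in plants. Of the 20 tested, 17 had a log2 fold change under 0, with a median of -0.22 that became -0.07 without mock 2. By edgeR 0 were called, and 5 were lower at an unadjusted p under 0.05 (3.59% of all genes). DESeq2 called 3 lower (0.725%), and 3 had groups apart on the lower side (1.96%). PRR9, a morning clock repressor, ranged from 6.14 to 13.2 CPM in carbenicillin libraries, against 14.7, 39.4 and 31.6 CPM in mock 1, 2 and 3, and its log2 fold change of -1.43 (SE 0.25, adjusted p = 0.0724, edgeR) was -1.60 among deep and -0.58 among shallow libraries. CCA1 and LHY, the morning factors of the core clock, stood at -0.84 (SE 0.38) and -0.62 (SE 0.44) with overlapping groups, and the evening gene TOC1 at 0.08. GI, an afternoon gene, stood at -0.44 (SE 0.11) with groups apart. The part of the clock in the values of the light and sugar lists was not tested.

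Auxin and root structure genes were described in 4 lists without a member called by edgeR, while DESeq2 called 3 auxin genes and 1 suberin and Casparian strip gene lower (0.725% of all genes). The auxin list had 16 of 25 members under 0 and a median of -0.07, and its lowest p belonged to IAA14, a repressor of lateral root initiation, with 14.5 to 21.9 CPM in carbenicillin libraries, against 27.2, 29.3 and 33.0 CPM in mock 1, 2 and 3 (log2 fold change -0.68, SE 0.12, adjusted p = 0.0755, edgeR). The efflux carrier PIN4 stood at -0.63 and the repressor IAA28 at -0.61, both with groups apart, while the influx carrier AUX1 stood at -0.09. Root hair genes had a median of -0.02 over 23 members, led by RHD6 at -0.21, and cell cycle genes a median of -0.05 over 31, led by MCM6 at -0.28, which was -0.16 without 1 day 2 or mock 1. In the suberin and Casparian strip list 21 of 23 members lay under 0 with a median of -0.17, which was -0.09 without 7 days 3, and CYP86B1, a hydroxylase of suberin synthesis, had the lowest p at -0.52 (SE 0.13, adjusted p = 0.197, edgeR). The median of this list over mock was -0.29 after 7 days and -0.05 after 1 day of carbenicillin.

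Stress and nutrient lists likewise gave 0 calls by edgeR, while DESeq2 called 1 of 19 detoxification and 1 of 17 redox genes lower (0.725% of all genes). Glutathione transferases and other detoxification genes had a median of -0.14 over 19 members, with GSTU5 at -0.89 (SE 0.20, adjusted p = 0.123, edgeR). Redox genes had a median of -0.03, which ran from -0.07 without mock 2 to -0.01 without 1 day 3, with the NADPH oxidase gene RHD2 at -0.28. Indole glucosinolate and nitrilase genes were split evenly, 13 under and 13 over 0, with NIT3 at -0.31 and NIT1 at -0.13. The phosphate, iron and nitrate lists had medians of -0.15, -0.09 and -0.08, with PHT1;4 at -0.38, bHLH38 at -0.34 and LBD38 at 0.21 as the members of lowest p. The phosphate median was -0.03 without mock 2 and -0.10 without mock 3. Single libraries also moved uncalled members: NIT1 stood at -0.04 without mock 3, bHLH38 at -0.56 without mock 2 and -0.12 without mock 3, and LBD38 at 0.12 without 1 day 2 or mock 2. The touch list had a median of -0.08, with MPK3 at 0.31. Medians of the auxin, cell cycle, indole glucosinolate, iron, nitrate, root hair and touch lists changed sign in at least 1 of 19 alternative fits.

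Most transcripts of the organelle genomes had a log2 fold change over 0. The plastid list had 80 of 88 members over 0 and a median of 0.12, with ATCG01080 at 0.26 (adjusted p = 0.517, edgeR), and the mitochondrial list had 64 of 69 members over 0 and a median of 0.24, with ATMG00450 at 0.60 (SE 0.28), which was 0.32 without mock 3. Both had 0 genes called by edgeR and by DESeq2, and 2 plastid genes and 0 mitochondrial genes had an unadjusted p under 0.05, against 7.47% of all genes. Mitochondrial reads took 2.73% to 5.31% of the counts in carbenicillin libraries and 2.2% to 5.94% in mock libraries, so the shares overlapped. The mitochondrial median was 0.11 without 7 days 2.

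A wider set, taken after the values had been seen, held the 76 genes with an adjusted p under 0.10, 57 of them lower (0.291%) and 19 higher (0.097%) in carbenicillin roots. The groups were apart in 73 of the 76 (4.02% of all genes), a count that the choice by low p in the same contrast largely fixes. The genes named from here to the end of the next paragraph were chosen after their values were seen, and none beyond the 4 above passed the test of edgeR, while DESeq2 called all 76. The lower set held further B-box genes: BBX30 ranged from 0.431 to 1.07 CPM with carbenicillin, against 2.1, 5.22 and 2.42 CPM in mock roots, and BBX31 had a log2 fold change of -1.85 (SE 0.31). It also held PKS1, a phytochrome partner, at -0.90, KAI2, the karrikin receptor, at -0.64, MYB4, a repressor of hydroxycinnamate genes, at -0.59, and CM1 and ADT4, enzymes of phenylalanine synthesis, at -0.60 and -0.54. CIA2, a transcription factor, stood at -1.15, SPS1, a solanesyl diphosphate synthase, at -1.04, and HCF152 at -0.55.

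Among the 19 higher genes, AT3G15450, annotated as an aluminum induced protein, ranged from 288 to 612 CPM in carbenicillin libraries, against 119, 213 and 147 CPM in mock 1, 2 and 3 (log2 fold change 1.47, SE 0.28). BT2, a BTB and TAZ domain regulator, ranged from 74.9 to 218 CPM, against 61.1, 62.4 and 50.1 CPM in mock roots (log2 fold change 1.40, SE 0.28). BCE2, a subunit of the enzyme that breaks down branched-chain keto acids, stood at 0.93 (SE 0.17), and the bZIP factor BZO2H3, which acts in the response to low energy, at 0.82 (SE 0.15). MEE14 stood at 1.28, the PLATZ factor AT1G76590 at 1.25 and the glutaredoxin GRXS13 at 0.66. AT3G15450 and BCE2 overlap a gene on the opposite strand, as do PKS1, SPS1 and HCF152.

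Libraries did not contribute alike to this wider set. The carbenicillin library nearest to mock was 7 days 2 in 22 of the 57 lower and 13 of the 19 higher genes. The mock library nearest to carbenicillin was mock 1 in 42 of the 57 lower genes and mock 2 in 14 of the 19 higher genes. Mock 2 was the mock library farthest from carbenicillin in 35 of the 57 lower genes, where BBX30 and PRR9 are examples.

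The pooled fit gave both exposures 1 common mean, and with each exposure fitted on its own and the 2 averaged, 22 genes were called lower and 1 higher. The difference between the exposures was tested on its own. Between 7 days and 1 day edgeR called 0 of 19580 genes in either direction (0%), while 398 had an unadjusted p under 0.05 (2.03%). DESeq2 also called 0. The changes from mock at each exposure share the mock libraries and are given side by side only, with 0 genes called by edgeR after 7 days (0%) and 31 after 1 day (0.158%). LSU2 stood at -1.50 after 7 days and at -1.57 after 1 day, a difference of 0.07 (SE 0.22). ATSDI1 stood at -1.40 and -1.60, a difference of 0.19 (SE 0.24), and AT1G04770 at -0.84 and -0.95, a difference of 0.11 (SE 0.14), all in the order 7 days, 1 day. MYB12 stood at -1.50 after 7 days and at -1.88 after 1 day, a difference of 0.39 (SE 0.24).

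Some of the light-related genes are given at each exposure as well, and none passed the test of the difference. ELIP1 stood at -2.23 after 7 days and at -3.70 after 1 day, UGT84A2 at -1.44 and -2.57, and HY5 at -0.67 and -1.01, in the same order. In the flavonoid list the median was -0.53 after 7 days and -1.18 after 1 day, in the photoprotection list it was -0.55 and -1.06, and in the light signalling list -0.45 and -0.48. Of the higher genes, BGAL2 stood at 1.26 after 7 days and at 1.47 after 1 day, OXS3 at 1.01 at both, and the sugar list had medians of 0.46 and 0.60. Of the 57 lower genes of the wider set 14 differed between the exposures at an unadjusted p under 0.05 (2.03% of all genes), all 14 of them nearer to mock after 7 days, and of the 19 higher genes 0 did. A p that misses the threshold does not show that the exposures acted alike, and the adjusted p was 0.99972 for each of the 4 called genes.

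**Figure D5:**
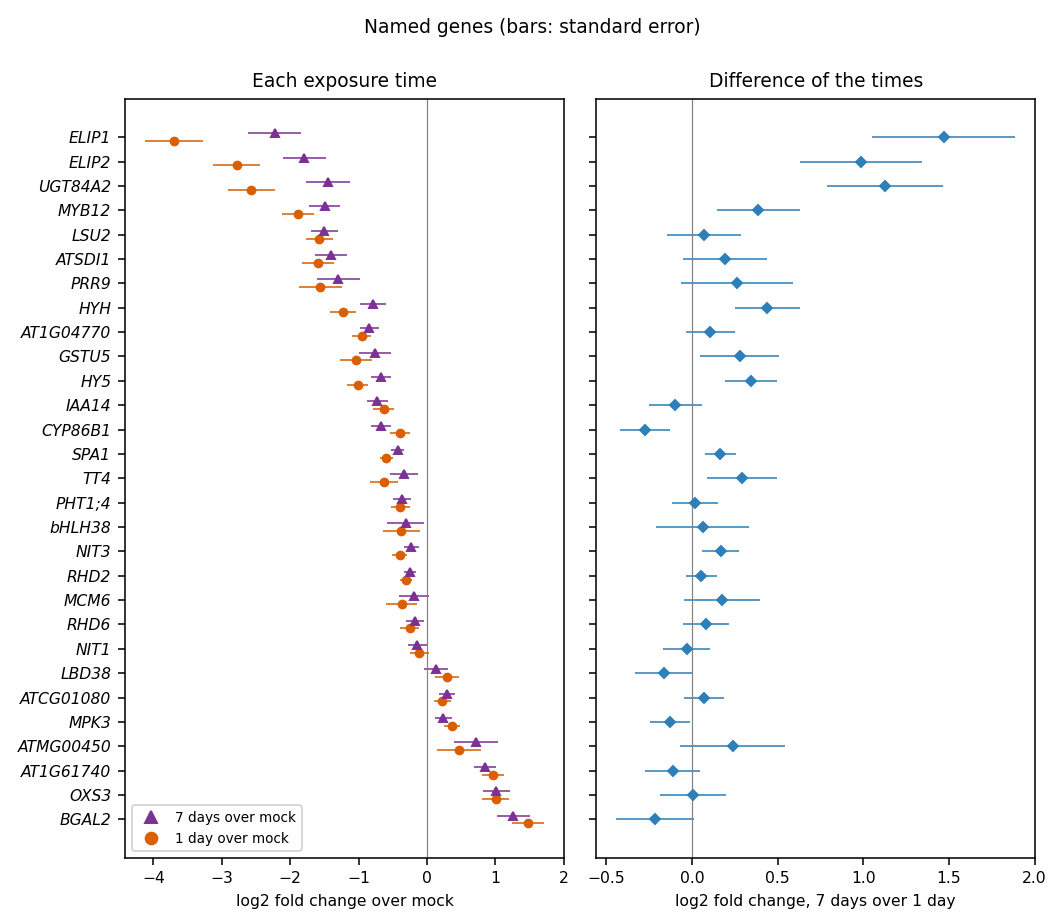
Log2 fold change of 29 named genes after 7 days (triangles) and after 1 day (circles) over mock on the left, and of 7 days over 1 day on the right, with bars for the standard error. ELIP1, ELIP2 and UGT84A2 have the largest positive values of 7 days over 1 day, 1.47, 0.99 and 1.13, and LSU2, at 0.07, lies near 0.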

How the data were processed

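The authors deposited raw read counts for 28775 genes, 1 column for each of 9 libraries, as whole numbers. Per the labels' protocols, RNA was extracted with an RNeasy column kit and libraries were made with a TruSeq stranded total RNA kit. FastQC, cutadapt and edgeR were used, per the submitters' processing notes, without versions. How reads were aligned and counted, with which build, annotation and strand setting, is not given in the sources used here. Names and gene overlaps came from the RefSeq table of TAIR10.1, which had an entry for 28009 genes. Lines that name no gene held no counts and were left out.

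The test was edgeR 4.0.16 under R 4.3.3. filterByExpr on the 2 groups kept 19580 genes, TMM scaled the libraries, and glmQLFit and glmQLFTest compared 6 carbenicillin with 3 mock libraries without covariates. A gene was called at an adjusted p (Benjamini-Hochberg) under 0.05. A fit with 3 groups on the same genes gave 7 days against 1 day. The SE is the absolute log2 fold change divided by the square root of F. CPM values are not divided by gene length, so they compare libraries and not genes. They are TMM scaled, except for the sums of root and shoot markers, which are scaled by the total count alone. Means of lists are of log2 CPM with a prior count of 2. The scripts were tested on simulated data.

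The contrast, the gene lists and the tests were chosen with earlier results of these data known. The 18 lists held 432 symbols, of which 346 matched the RefSeq table by symbol and 55 by synonym, 29 were unmatched and 2 were left out because the name belonged to another gene; all plastid and all mitochondrial genes made 2 more lists. Named genes were the called genes with groups apart and at least 1 CPM on average, up to the 10 largest changes per direction, or else the 3 lowest p-values, the called members of each list (at most 4) or its member of lowest p, and 9 genes by name, 29 in all. Others are named as chosen after their values were seen.

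Replicate numbers were checked by correlating deviations from group means. With mock, 2 of 6 same-number pairs exceeded 0.1 (-0.187 to 0.423), as did 4 of 12 other pairs (-0.379 to 0.360). The numbers are therefore not taken to pair mock with carbenicillin libraries. Those over 0.1 were mock 2 with 7 days 2 (0.423) and 1 day 2 (0.339), and mock 1 with the shallow 1 day 3 (0.360) and 7 days 3 (0.327). Mock 3 reached 0.229 with 7 days 1 and 0.137 with 1 day 2. Among carbenicillin libraries a shared number gave correlations of 0.205 to 0.257, and 0 of 6 pairs with unlike numbers passed 0.1. The pooled fit took the 6 carbenicillin libraries as independent, which was not tested. Within groups, chi-square per degree of freedom between libraries was 9.96 to 31.2, so none was a duplicate. The alternatives were the mean of 3 groups, RLE or upper quartile scaling, no filter or CPM of at least 1 in 3 libraries, DESeq2 1.42.0, a replicate block, no organelle or ribosomal RNA genes, thresholds of 0.01 or a log2 fold change of 1, each library left out, the 3 shallow libraries left out, and depth class as a term. The threshold of 0.10 and the values within depth classes were added after seeing the data. Counts limit the precision of genes with few reads.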

Additional observations from a re-analysis of the deposited data

Results flagged for a closer look

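LSU2 had 4.81 CPM in 7 days 1, apart from the other 5 carbenicillin libraries, the nearest of which held 4.01 CPM. The gap was 0.660 of the range of the 6 carbenicillin libraries. All 6 remained under the 3 mock libraries, whose lowest value was 9.55 CPM. Chance marks about 1 in 20 groups of this size, and 29 named genes were looked at.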

How the results depend on the processing

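As reported, 4 genes were lower and 0 higher in carbenicillin roots. The counts of genes lower and higher were 4 and 0 with RLE scaling, with upper quartile scaling, with a minimum CPM of 1 and without organelle and ribosomal RNA genes, each time the same 4 genes. They were 22 and 1 with the mean of 3 groups, 21 and 4 without a filter, 142 and 78 with DESeq2, 37 and 5 with depth class as a term, and 57 and 19 at an adjusted p under 0.10. Without the 3 shallow libraries they were 22 and 0, with 3 of the 4 genes among them. With the replicate block 20 genes were lower and 1 was higher, and the block kept all 4 genes; the numbers do not pair the mock libraries with the others. At an adjusted p under 0.01, edgeR called 0 genes lower and 0 higher, and with a log2 change of 1 or more asked for as well it called 3 lower. Leaving out 1 library gave 0 to 49 genes lower and 0 to 27 higher. For 7 days against 1 day, 0 genes were called under all 9 alternatives; there all 3 same-number pairs exceeded 0.1 (0.205 to 0.257), and the replicate block changed no call. None of the 549 values of named genes under alternatives changed sign. The ratios within depth classes are not among these values. Among shallow libraries 4 named genes had the sign opposite to the pooled fit. These were bHLH38 at 0.0098, NIT1 at 0.0025, LBD38 at -0.04 and ATMG00450 at -0.21. The 76 genes with an adjusted p under 0.10 (edgeR) all kept their sign among deep and among shallow libraries. For the 73 with groups apart that sign was fixed in advance. The others were CCOAMT at -0.016, AFR at -0.13 and CYP82C2 at -0.59 among shallow libraries. Of 378 list medians 3 moved by more than the spread between replicates: sulfur, at -0.16 without the 3 shallow libraries and -0.44 without 7 days 1, and clock, at -0.07 without mock 2. Scaling moved the median of all genes to -0.0058 with RLE and 0.017 with upper quartile. The cause of these changes was not tested. Depth limits the precision of genes with few reads, such as LSU2 with 24 reads in its lowest library.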

Other observations

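Some of the 76 genes with an adjusted p under 0.10 have roles that no list above covers. They are given as values, chosen after the values had been seen, and none was called by edgeR's quasi-likelihood test. MIZ1, which acts in the bending of roots toward water, ranged from 55.3 to 75.5 CPM in carbenicillin libraries, against 91.4, 96.6 and 99.1 CPM in mock roots. The groups did not overlap, and the log2 fold change was -0.57 (SE 0.11). MIR163, a microRNA precursor, ranged from 30.5 to 42.8 CPM with carbenicillin, against 45.2, 77.9 and 64.5 CPM in mock roots. SMZ, a repressor of flowering of the AP2 family, stood at -0.56 (SE 0.095) and overlaps a gene on the opposite strand. PES1, a phytyl ester synthase of plastids, stood at -0.56 (SE 0.10). GLIP1, a secreted lipase, had 0 to 0.315 CPM in carbenicillin libraries, against 1.23, 0.817 and 2.09 CPM in mock roots, and at most 31 reads in any library.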
